A study of Mus musculus with 9 samples.

Results

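Ubiquitin-conjugating (E2) enzymes and ubiquitin-specific proteases (USP) were followed through macrophage polarization as 75 genes of the 12474 rows measured. They are the rows present in all 9 libraries whose symbol starts with Ube2 and a letter (32 genes) or with Usp and a number (43 genes), of 77 such rows, without the 2 genes Ube2c and Usp18. The rule reads symbols and not values, but all values in the rows measured are positive. Genes undetected in some library are therefore not among these rows. RAW264.7 is a mouse macrophage-like cell line, described as wild type by the labels, and all 9 libraries come from it. The 3 Mock libraries are labelled as mock treated, with no LPS, interferon or iodide named for them, and the 3 M1 libraries are cells polarized with 100 ng/ml of the bacterial product lipopolysaccharide (LPS) plus 50 ng/ml of mouse interferon gamma. The 3 I libraries received the same LPS and interferon gamma with potassium iodide at 20 mM during polarization. No time of treatment is given in the sources used here, and no library received another salt, so the iodide cannot be told apart from the potassium or from the added osmolarity. Whether replicate libraries are separate cultures is not stated, and the p-values may therefore rest on technical spread alone.

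Ubiquitin is attached to proteins by a relay in which an E1 enzyme activates it, an E2 carries it, and an E3 ligase brings the loaded E2 to the target. The E2 largely sets which kind of chain is built, and chains of different linkage send proteins to the proteasome or assemble signalling complexes. USP enzymes are the largest family of deubiquitinases and remove ubiquitin from targets or trim chains. In macrophages, chains made after Toll-like receptor and cytokine receptor engagement carry the signal to NF-kB, and deubiquitinases limit it. Related E2 enzymes serve the ubiquitin-like proteins NEDD8 and ISG15.

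Some symbols match the rule without encoding such an enzyme. Ube2v1 and Ube2v2 are E2 variants that lack the catalytic cysteine and act with Ube2n. Ube2cbp encodes a protein named for binding the E2 UBE2C, and Ube2d-ps is named as a pseudogene. Usp39 is a splicing factor and Usp6nl acts on Rab GTPases. All were kept as members.

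The library totals recovered from the values were 17431070 to 25470730 fragments, and the median member had 1023 fragments in a library. In 9 members at least 1 library held fewer than 100 fragments, so their values carry more counting error. Across genes, Pearson's r on the log2 scale was 0.9968 to 0.9973 between replicates and 0.8488 to 0.9791 between groups. All 7 macrophage markers looked for were in the files, and Adgre1, Csf1r, Cd68, Lyz2, Itgam, Fcgr3 and Cd14 each passed the filter. In M1 vs Mock 5 of them rose and 2 fell, from −2.28 for Csf1r to 2.19 for Adgre1 (log2 fold change), and with iodide 2 rose and 5 fell. Of 3 lymphocyte markers 1, Lck, was in the files and passed the filter, at 4.96 ± 0.34 FPKM (SD) in Mock and 3.58 ± 0.34 in M1, and 0 of 2 fibroblast and epithelial markers were in the files. The part of these shifts in the members' results was not tested. Levels are FPKM, fragments scaled by gene length and by library total. Differences are on the log2(FPKM + 1) scale and come from limma over the 11156 rows that reached 0.5 FPKM in 3 or more libraries. Calls were made below 0.05 after Benjamini-Hochberg adjustment, and n = 3 in each group throughout. All 32 Ube2 genes and 42 of the 43 Usp genes passed this filter. Usp50 did not, with 0.101, 0.0554 and 0.0319 FPKM in Mock cells, 0.13, 0.221 and 0.199 after M1 treatment, and 0.213, 0.21 and 0.251 with iodide.

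In Mock cells Ube2 genes had the higher median level and both families about the same summed level. With library-total scaling, the summed level of the Usp genes was lower in polarized cells. The median FPKM over the 32 Ube2 genes was 11.1, 11.3 and 11.6 in the Mock libraries, 11.2, 11.3 and 9.98 in M1, and 10.1, 10.3 and 10.3 in I. For the 42 tested Usp genes it was 7.96, 8.04 and 8.23 in Mock, 6.4, 6.28 and 6.51 in M1, and 5.44, 5.62 and 5.47 in I. Thus the Usp median was lower in each of the 6 polarized libraries than in each Mock library, while the Ube2 medians of M1 overlapped those of Mock. Summed over all members, Ube2 genes held 554, 557 and 551 FPKM in the Mock libraries, 542, 557 and 552 in M1 and 522, 525 and 518 in I. Usp genes held 557, 554 and 549.6 FPKM in the Mock libraries, 396, 385 and 394 in M1 and 404, 412 and 406 in I. Within the Ube2 genes the level in Mock ran from 0.294 ± 0.12 FPKM (SD) for Ube2v1 to 102 ± 3.4 for Ube2l6, followed by Ube2b, Ube2q1 and Ube2m. Within the Usp genes it ran from Usp50 to 57.1 ± 1.5 FPKM for Usp25, followed by Usp8, Usp1 and Usp39.

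**Figure D1:**
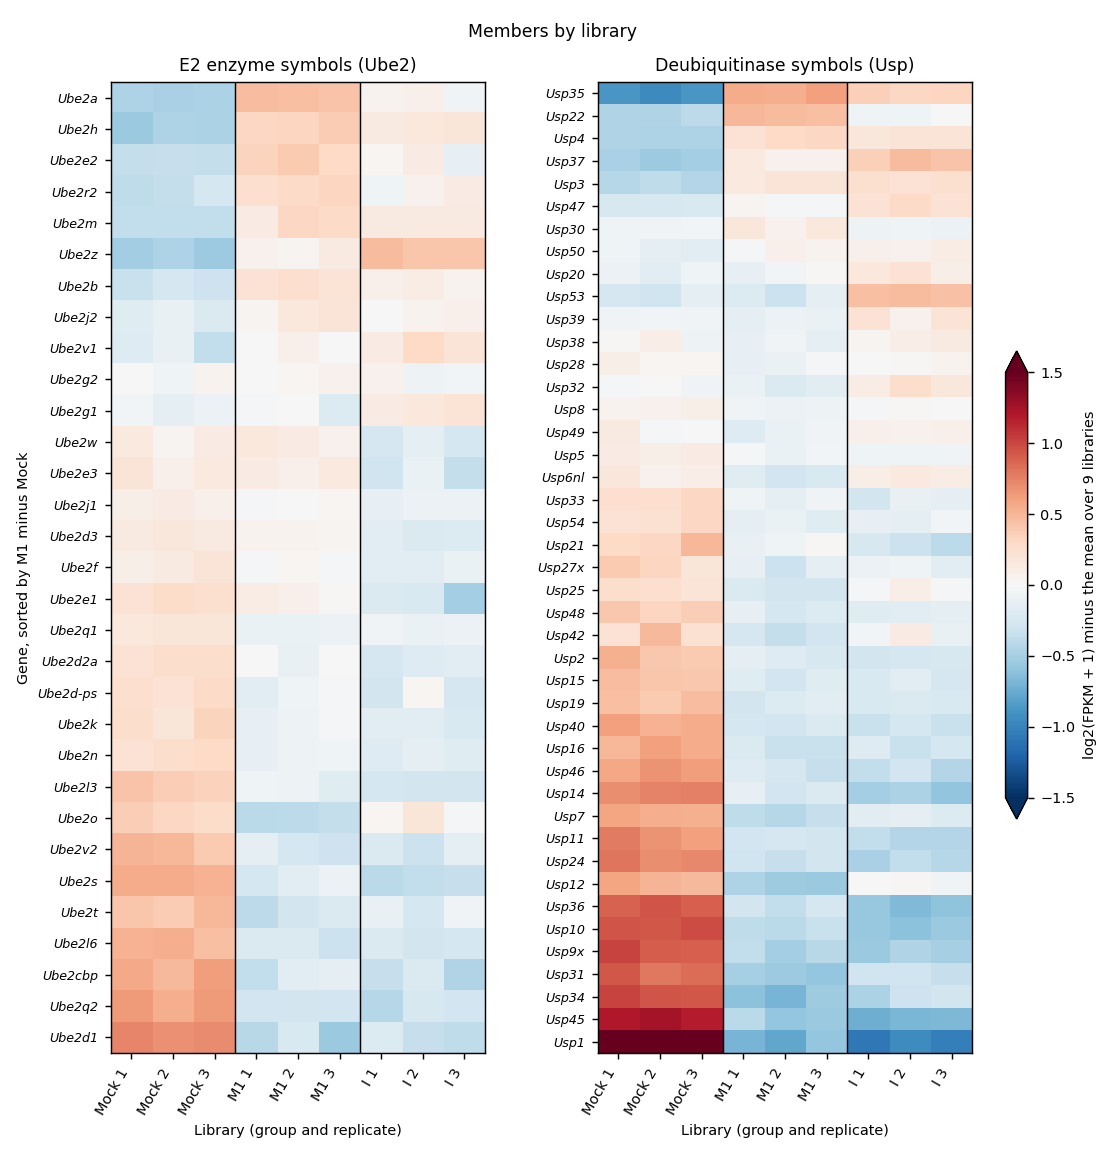
Level of the members in each library, as log2(FPKM + 1) minus the gene's own mean over the 9 libraries (colour, capped at 1.5 on either side, so that Usp1 in Mock lies beyond the scale). Rows are 31 of the 32 Ube2 genes and all 43 Usp genes, sorted by M1 minus Mock, columns are libraries, and Usp50 is drawn although it did not pass the filter. Usp1, Usp45 and Usp34 at the foot of the right panel are highest in Mock, and Usp35 and Ube2a at the top of each panel are lowest there.

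The first comparison asked what LPS with interferon gamma changed. The deubiquitinase Usp1, which removes ubiquitin from the repair proteins FANCD2 and PCNA, fell from 39.3 ± 1.5 to 6.71 ± 0.54 FPKM (SD), and Usp45, Usp34, Usp31 and Usp9x fell with it. Usp35 was the largest rise, from 1.95 ± 0.091 to 7.16 ± 0.24 FPKM. Among E2 enzymes Ube2a rose from 11.97 ± 0.13 to 23.6 ± 0.28 FPKM and Ube2h from 11.1 ± 0.43 to 20.6 ± 0.57, while Ube2d1 fell from 5.89 ± 0.1 to 2.21 ± 0.37. Fewer cells with a transcript and less of it per cell cannot be told apart in these bulk libraries.

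Of the 42 Usp genes tested, 31 (73.8%) were lower in M1, 7 (16.7%) higher and 4 not called, so that 90.5% were called either way. Of the 32 Ube2 genes 18 (56.2%) were lower, 9 (28.1%) higher and 5 not called, or 84.4% called either way. Over all 11156 genes tested, 55.3% were lower and 30.5% higher, 85.8% in all. With this library-total scaling the Ube2 shares were near the background and the Usp share of falls was above it. The balance of Ube2 genes turned with the scaling, while Usp falls outnumbered Usp rises with each. With RLE (median-of-ratios) scaling 17 Ube2 genes were higher and 9 lower, and 15 Usp genes higher and 24 lower, against 43.7% of all genes higher and 42.1% lower. With quantile scaling 16 Ube2 genes were higher and 11 lower, and 12 Usp genes higher and 24 lower, against 42.1% and 42.9% of all genes. At least 2-fold falls on the log2(FPKM + 1) scale were called for 9 Usp genes (21.4%) and 1 Ube2 gene (3.12%), against 16.1% of all genes. At least 2-fold rises were called for 1 Usp gene (2.38%) and for no Ube2 gene, against 6.78% of all genes. Groups did not overlap in 39 Usp genes (92.9%) and 27 Ube2 genes (84.4%), beside 86.4% of all genes. The median log2 fold change was −0.12 over the Ube2 genes and −0.49 over the Usp genes, and −0.232 over all genes. The Ube2 median therefore lay 0.38 above the Usp median. A related quantity was taken in each library, the Ube2 minus the Usp median of values centred on each gene's mean. Here and below, the spread between libraries is the SD of this quantity within groups, 0.047 for Mock and M1.

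Directions near the median depend on how the libraries are scaled, since the median gene moved to 0.019 with RLE scaling. Calls of the same direction with library-total, RLE and quantile scaling were made for 22 of the 31 Usp falls and 9 of the 18 Ube2 falls, and for all 7 Usp and all 9 Ube2 rises. Over all genes such calls were made for 4324 of 6166 falls and 3300 of 3405 rises, or 38.8% and 29.6% of the genes tested. The sign turned under at least 1 of these scalings for 7 Ube2 falls (Ube2d-ps, Ube2d2a, Ube2d3, Ube2e1, Ube2f, Ube2j1 and Ube2q1) and 7 Usp falls (Usp5, Usp6nl, Usp8, Usp28, Usp32, Usp33 and Usp49). Whichever scaling was used, the Usp median lay 0.25 to 0.26 below the median of all genes, and the Ube2 median 0.1 to 0.15 above it.

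**Figure D2:**
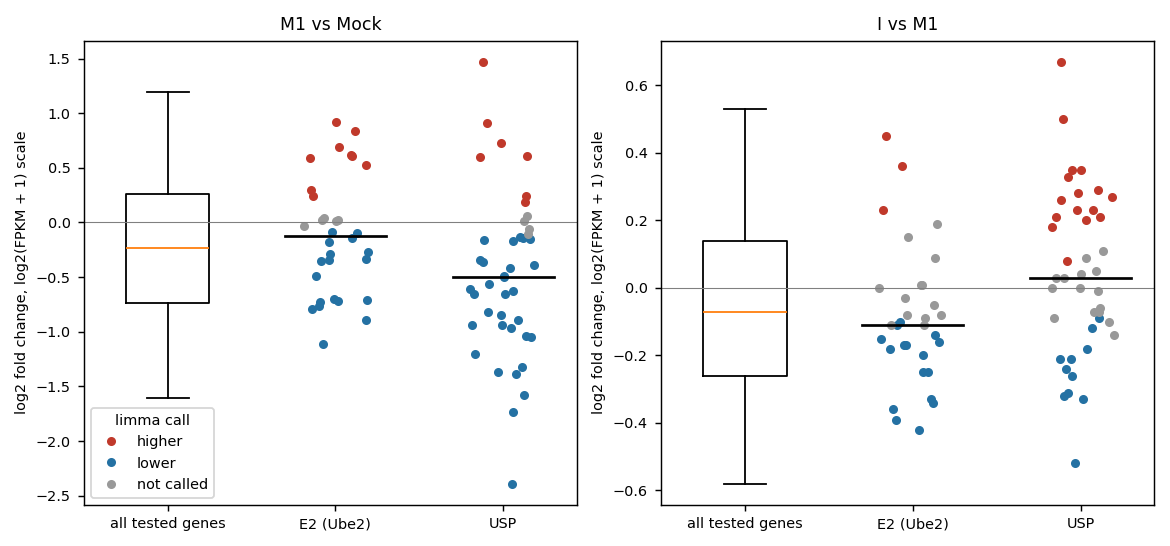
Log2 fold change of each tested member (points, coloured by limma call) for M1 vs Mock on the left and I vs M1 on the right, beside all 11156 tested genes (box from the lower to the upper quartile with the median, whiskers at the 5th and 95th percentiles). Black bars are family medians, at −0.12 for Ube2 and −0.49 for Usp genes on the left and at −0.11 and 0.03 on the right; the 2 vertical axes differ in range.

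Usp genes are longer than Ube2 genes, and the change in M1 varied with length over all genes. The summed exon length had a median of 7727.5 bases in tested Usp genes, 4433 in Ube2 genes and 4275 in all 10943 tested genes with an annotated length. Over 4 bins of near-equal size from the shortest to the longest of these genes, the median log2 fold change in M1 was 0.04, −0.22, −0.29 and −0.42. Across all genes Spearman's rho between exon length and the log2 fold change was −0.21 in M1 vs Mock. In I vs M1 it was 0.19, and the same bins had medians of −0.15, −0.09, −0.05 and 0.01. Within the 42 Usp genes rho was −0.14 and 0.16, and within the 32 Ube2 genes −0.21 and −0.13. These are descriptions over genes of the same libraries, and the part of length in the difference between the families was not tested.

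The second comparison set polarization with potassium iodide against polarization alone, and shares its M1 libraries with the first. Changes were small, and no member changed 2-fold on the log2(FPKM + 1) scale, beside 1.06% of all genes higher and 0.771% lower. Usp53 rose from 1.46 ± 0.15 to 2.92 ± 0.047 FPKM, a ratio of means of 2.0, and Usp12 from 7.61 ± 0.32 to 11.2 ± 0.32. Usp22, the deubiquitinase of the SAGA coactivator complex, fell from 29.5 ± 0.49 to 20.2 ± 0.55 FPKM. Ube2a fell from 23.6 ± 0.28 to 17.3 ± 0.89, and Ube2o rose from 5.98 ± 0.096 to 8.55 ± 0.7.

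Among Ube2 genes, 16 of 32 (50%) were lower with iodide, 3 (9.38%) higher and 13 not called. Among Usp genes, 11 of 42 (26.2%) were lower, 16 (38.1%) higher and 15 not called. The shares over all genes were 39.3% lower and 24.9% higher, 64.2% in all. With library-total scaling Ube2 genes thus had more falls and fewer rises than the background and Usp genes the reverse. Groups did not overlap in 21 Ube2 genes (65.6%) and 31 Usp genes (73.8%), against 67.2% of all genes. The median log2 fold change was −0.11 for Ube2 genes, 0.03 for Usp genes and −0.065 for all genes, and the Ube2 median lay 0.14 below the Usp median. The related quantity per library was 0.15, 0.27 and 0.17 in M1 and −0.04, −0.02 and 0.02 in I (SD between libraries 0.05). Its step between the groups is not the same size as the difference of the medians. With all 3 scalings the same direction was called for 11 of the 16 Ube2 falls, all 3 Ube2 rises, 9 of the 11 Usp falls and all 16 Usp rises. Over all genes it was called for 3538 of 4382 falls and 2770 of 2775 rises, or 31.7% and 24.8% of the genes tested. With RLE scaling 6 Ube2 genes were higher and 12 lower and 18 Usp genes higher and 9 lower, against 30.4% and 32.5% of all genes. With quantile scaling they were 6 and 11, and 18 and 9, against 30.2% and 32.4%. The 12 and 11 falls of 32 Ube2 genes were thus near the background, while the other differences kept their direction.

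**Figure D3:**
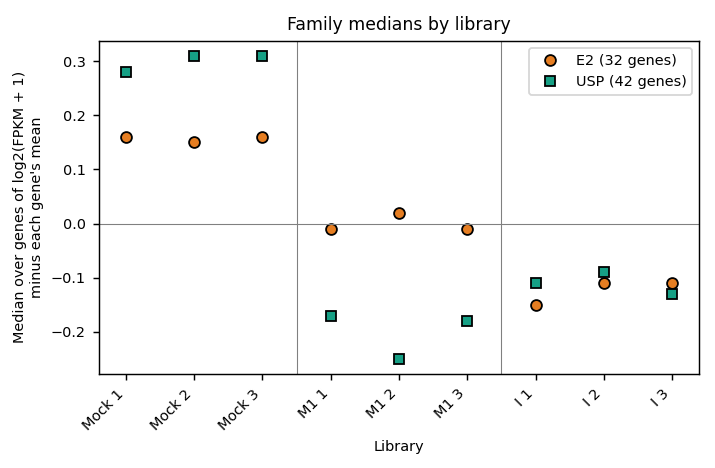
Family medians in each library: for every tested gene the log2(FPKM + 1) value minus its mean over the 9 libraries, and the median of that over 32 Ube2 genes (circles) and 42 Usp genes (squares). In the Mock libraries the Usp medians (0.28 to 0.31) lie above the Ube2 medians (0.15 to 0.16), in M1 they lie below (−0.25 to −0.17 against −0.01 to 0.02), and in I both lie between −0.15 and −0.09.

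Set against Mock directly, the I libraries had 27 Usp genes lower (64.3%) and 10 higher (23.8%), and 21 Ube2 genes lower (65.6%) and 10 higher (31.2%), beside 58.6% and 28.2% of all genes. Either way 88.1% of Usp and 96.9% of Ube2 genes were called, against 86.8% of all genes, and the same shares of members had groups without overlap, against 87.1%. With all 3 scalings 20 of the 27 Usp falls, 9 of the 21 Ube2 falls and all 10 rises in each family were called. Over all genes 4330 of 6534 falls and 3093 of 3146 rises were, or 38.8% and 27.7% of the genes tested. On the log2(FPKM + 1) scale, at least 2-fold falls were called for 10 Usp genes (23.8%) and 1 Ube2 gene (3.12%), against 18.0% of all genes. An at least 2-fold rise on that scale was called for 1 Usp gene (2.38%), Usp35, against 6.98%. This scale lessens changes at low FPKM. As ratios of mean FPKM to Mock, Usp37 was at 2.12 and Usp53 at 2.02, and Ube2cbp was at 0.128 and Ube2v2 at 0.411. The family medians were −0.43 for Usp and −0.3 for Ube2 genes, with −0.298 for all genes. The Ube2 median lay 0.13 above the Usp median, with a spread between libraries of 0.025. This difference was 0.21 with RLE scaling, 0.24 with a pseudocount of 0.1, 0.25 with limma-voom and 0.22 without the 6 symbols that name no E2 enzyme or deubiquitinase. With RLE scaling 14 Ube2 genes were higher and 11 lower, and 18 Usp genes higher and 23 lower, against 42.9% and 42.7% of all genes. This comparison shares its Mock libraries with the first and its I libraries with the second.

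The E2 enzymes of ubiquitin-like proteins went different ways. Ube2l6, which conjugates the interferon-induced modifier ISG15, was at 104, 105 and 98.5 FPKM in Mock cells, 61.6, 61.3 and 57.1 after M1 treatment, and 61.6, 59.1 and 59.4 with iodide. Each Mock library lay above every polarized library, and the M1 and I ranges overlapped. The fall in M1 was to 0.586 of the Mock mean (log2 fold change −0.76 ± 0.036 SE, limma adjusted p = 3.36e-09), and iodide left a difference of 0.00 ± 0.036 SE that was not called. Ube2m, which passes NEDD8 to cullin proteins, was at 40.5, 40.6 and 40.7 FPKM in Mock cells, 57.5, 65.7 and 64.4 after M1 treatment, and 57.8, 57.8 and 57.8 with iodide. It was higher in all polarized libraries than in Mock (log2 fold change 0.61 ± 0.042 SE, limma adjusted p = 9.3e-08). Its fall with iodide (log2 fold change −0.11 ± 0.042 SE, limma adjusted p = 0.0436) came with overlapping groups, turned to 0.00 with quantile scaling, and was lost without any of 8 of the 9 libraries, at an adjusted p of 0.0556 to 0.168. Ube2f, the other NEDD8 enzyme, had log2 fold changes of −0.14 in M1 and −0.14 with iodide, the first turning sign with RLE and quantile scaling and the second losing its call with either and without M1 replicate 2 (limma adjusted p = 0.0511).

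Of 8 E2 enzymes and variants that build defined chains, 4 fell and 2 rose in M1, near the 55.3% and 30.5% of all genes, and 2 fell and 1 rose with iodide, beside 39.3% and 24.9%. Ube2n makes lysine 63 chains together with Ube2v1 or Ube2v2, and was at 21.1, 21.9 and 22.4 FPKM in Mock cells, 16.5, 17.04 and 17.2 after M1 treatment, and 15.6, 16.4 and 15.8 with iodide. All polarized libraries were below Mock (log2 fold change −0.35 ± 0.034 SE, limma adjusted p = 1.79e-06). With RLE scaling the fall of Ube2n was not called. Ube2v2 fell from 1.85 ± 0.12 to 0.75 ± 0.11 FPKM and stayed at 0.761 ± 0.11 in I. Ube2v1 was at 0.317, 0.401 and 0.164 FPKM in Mock cells, 0.499, 0.588 and 0.496 after M1 treatment, and 0.641, 0.86 and 0.726 with iodide. Its groups do not overlap between Mock and M1 (log2 fold change 0.24 ± 0.077 SE, limma adjusted p = 0.0121), a call lost without Mock replicate 3 (limma adjusted p = 0.0508), and 69.1% of its exon bases are shared with other annotated genes, so its level is uncertain. Ube2s, which extends lysine 11 chains for the anaphase-promoting complex, fell from 21.9 ± 0.27 to 12.9 ± 0.85 FPKM in M1 and to 11.1 ± 0.23 with iodide. Ube2k, an enzyme of lysine 48 chains, fell from 9.18 ± 0.53 to 7.05 ± 0.24 FPKM, without a call under RLE or quantile scaling.

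Other chain builders rose or did not pass the test in M1. Ube2r2, a partner of cullin-RING ligases, was at 10.97, 11.2 and 11.9 FPKM in Mock cells, 17.5, 18.01 and 18.5 after M1 treatment, and 13.9, 15.3 and 15.97 with iodide. Every M1 library exceeded every Mock library (log2 fold change 0.62 ± 0.05 SE, limma adjusted p = 3.51e-07), and the I libraries lay between the other groups (log2 fold change −0.25 ± 0.05 SE, limma adjusted p = 0.00143). Ube2g1, another lysine 48 enzyme, was at 11.3, 10.4 and 10.8 FPKM in Mock cells, 11.5, 11.7 and 9.98 after M1 treatment, and 12.7, 13.2 and 13.6 with iodide. Mock and M1 overlapped, and each I library was above both (log2 fold change 0.23 ± 0.057 SE, limma adjusted p = 0.00395), though with RLE and quantile scaling M1 too was called above Mock. Its relative Ube2g2, which works in degradation from the endoplasmic reticulum, had 17.7 ± 0.8 FPKM before and 18.1 ± 0.47 after M1 treatment and 17.5 ± 0.93 with iodide, and was called in no comparison with library-total scaling, but with RLE and quantile scaling it was above Mock both in M1 (0.33 and 0.19) and in I (0.35 and 0.19).

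Of 9 broadly acting E2 enzymes in the files, 2 rose and 5 fell in M1, beside 30.5% and 55.3% of all genes, and 8 fell with iodide and none rose, beside 39.3% and 24.9%. Ube2d1 was at 5.99, 5.79 and 5.89 FPKM in Mock cells, 2.16, 2.595 and 1.87 after M1 treatment, and 2.64, 2.32 and 2.22 with iodide. Each polarized library lay far below every Mock library (log2 fold change −1.11 ± 0.079 SE, limma adjusted p = 1.09e-07), and M1 and I overlapped. Its relative Ube2d3 was at 16.9, 17.3 and 16.9 FPKM in Mock cells, 15.9, 15.9 and 15.8 after M1 treatment, and 13.6, 13.03 and 13.2 with iodide. The step from Mock to M1 was −0.10 and turned to 0.20 with RLE and 0.08 with quantile scaling, whereas the I libraries were below M1 with each scaling (log2 fold change −0.25 ± 0.029 SE, limma adjusted p = 2.78e-05). FPKM of Ube2d3 is per 24499 bases of summed exons, far above the length of most Ube2 genes, so its level may be understated beside theirs. Ube2d2a and the pseudogene Ube2d-ps are near in sequence to Ube2d3 and may share reads with it, and had log2 fold changes of −0.29 and −0.33 in M1, signs that turned with quantile scaling.

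The Ube2e enzymes also had lower levels with iodide. Ube2e2 was at 2.503, 2.54 and 2.52 FPKM in Mock cells, 4.68, 4.88 and 4.51 after M1 treatment, and 3.59, 3.89 and 3.13 with iodide. It rose in every M1 library (log2 fold change 0.69 ± 0.061 SE, limma adjusted p = 7.83e-07) and lay between in I (log2 fold change −0.33 ± 0.061 SE, limma adjusted p = 0.000773). Ube2e1 was at 7.39, 7.68 and 7.51 FPKM in Mock cells, 6.799, 6.59 and 6.28 after M1 treatment, and 5.21, 5.15 and 4.06 with iodide. Its I libraries were below M1 (log2 fold change −0.39 ± 0.072 SE, limma adjusted p = 0.000768), while the fall of −0.18 in M1 turned sign with both other scalings and was lost without any of 5 libraries (limma adjusted p = 0.0613 to 0.115). Ube2e3 was at 8.496, 7.72 and 8.19 FPKM in Mock cells, 8.05, 7.72 and 8.14 after M1 treatment, and 5.72, 6.76 and 5.48 with iodide. Mock and M1 overlapped, and all I libraries were lower than M1 (log2 fold change −0.36 ± 0.064 SE, limma adjusted p = 0.000531). With RLE and quantile scaling Ube2e3 was above Mock in M1, by 0.25 and 0.27, and so was Ube2w, by 0.29 and 0.30. Ube2w, which modifies protein N termini, was at 8.402, 7.73 and 8.25 FPKM in Mock cells, 8.49, 8.21 and 7.88 after M1 treatment, and 6.11, 6.68 and 6.04 with iodide. As in Ube2e3, Mock and M1 overlapped and the I libraries lay below M1 (log2 fold change −0.34 ± 0.049 SE, limma adjusted p = 0.000124).

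Ube2l3 serves HECT and RBR ligases, among them the complex that makes linear chains in NF-kB signalling. It was at 15.7, 15.1 and 14.8 FPKM in Mock cells, 10.9, 10.9 and 9.98 after M1 treatment, and 9.35, 9.28 and 9.28 with iodide. Groups did not overlap, with Mock highest and I lowest (log2 fold change −0.49 ± 0.04 SE, limma adjusted p = 3.74e-07). Ube2l3 was lower again with iodide (log2 fold change −0.17 ± 0.04 SE, limma adjusted p = 0.0035), and 28.6% of its exon bases are shared with Ydjc on the opposite strand. Ube2h, a partner of the CTLH ligase (ENSMUSG00000039159.16, chromosome 6, 30211289 to 30304539, minus strand; all gene coordinates are those of GENCODE vM21 on GRCm38), was at 10.6, 11.4 and 11.3 FPKM in Mock cells, 20.2, 20.4 and 21.2 after M1 treatment, and 17.8, 18.1 and 18.4 with iodide. M1 was highest and Mock lowest, with no overlap (log2 fold change 0.84 ± 0.036 SE, limma adjusted p = 1.33e-09 for M1 vs Mock).

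The 250 bases before the annotated start of Ube2h are shown because Ube2h, of 59 members with a RefSeq promoter (GRCm38.p6), was the 1 that held a full cAMP response element, in capitals, 24 to 17 bases before the start (chr6:30304540-30304789, minus strand).
Ube2h: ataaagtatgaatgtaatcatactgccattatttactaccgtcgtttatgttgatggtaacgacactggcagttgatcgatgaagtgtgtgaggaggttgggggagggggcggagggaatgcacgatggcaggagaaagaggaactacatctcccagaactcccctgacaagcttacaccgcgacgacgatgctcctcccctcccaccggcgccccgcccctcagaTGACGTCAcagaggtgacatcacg
That element, TGACGTCA, is found in this window for 1.77% of 27025 genes. Of the other motifs searched on both strands, the interferon-stimulated response element (GAAA and GAAA 2 bases apart) was held by 1 member (Usp49) and 3.46% of all genes, and the gamma-activated site TTCNNNGAA by 5 (Ube2cbp, Ube2d3, Ube2z, Usp27x and Usp50) and 8.13%. The E2F site TTTNNCGC was held by 4 (Ube2e2, Ube2q1, Usp19 and Usp48) and 4.94% of all genes. The strings searched for the NF-kB site (GGGA and TTTCC 1 base apart) and the tonicity enhancer (TGGAAA and TT 3 bases apart) were in the window of no member. They were in that of 0.414% and 1.58% of all genes, and other forms of these elements were not searched. A match is a run of letters and not a site shown to be bound.

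Both mammalian RAD6 enzymes, which add single ubiquitins to histone H2B and PCNA, rose in M1 and fell back with iodide. Ube2a (ENSMUSG00000016308.12, chromosome X, 36873900 to 36884222, plus strand) was at 12.1, 11.8 and 11.97 FPKM in Mock cells, 23.9, 23.6 and 23.3 after M1 treatment, and 17.6, 18.04 and 16.3 with iodide. No groups overlapped (log2 fold change 0.92 ± 0.037 SE, limma adjusted p = 7.69e-10), and the fall with iodide was the largest of the Ube2 genes (log2 fold change −0.42 ± 0.037 SE, limma adjusted p = 3.01e-06). Ube2b was at 47.5, 50.4 and 48.4 FPKM in Mock cells, 70.04, 72.2 and 69.8 after M1 treatment, and 63.7, 65.2 and 62.5 with iodide. It followed the same order (log2 fold change 0.53 ± 0.029 SE, limma adjusted p = 1.29e-08), with a call for iodide (log2 fold change −0.15 ± 0.029 SE, limma adjusted p = 0.0013) that was lost with quantile scaling. Ube2t, which serves the Fanconi anaemia pathway, fell from 2.496 ± 0.15 to 1.11 ± 0.12 FPKM in M1.

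The remaining Ube2 genes are large or atypical enzymes and membrane enzymes. Ube2z, which receives ubiquitin from the E1 enzyme UBA6 (ENSMUSG00000014349.7, chromosome 11, 96047432 to 96065388, minus strand), was at 25.99, 27.2 and 25.5 FPKM in Mock cells, 39.6, 38.8 and 41.5 after M1 treatment, and 52.8, 50.7 and 50.9 with iodide. It rose from Mock to M1 (log2 fold change 0.59 ± 0.034 SE, limma adjusted p = 1.95e-08) and from M1 to I (log2 fold change 0.36 ± 0.034 SE, limma adjusted p = 6.18e-06). Ube2o, a large enzyme that combines E2 and E3 functions, was at 10.8, 10.3 and 10.00 FPKM in Mock cells, 5.902, 5.96 and 6.09 after M1 treatment, and 8.29, 9.35 and 8.01 with iodide. It fell in M1 (log2 fold change −0.70 ± 0.053 SE, limma adjusted p = 1.81e-07) and was higher in every I library than in M1 (log2 fold change 0.45 ± 0.053 SE, limma adjusted p = 2.68e-05), and lower than in all Mock libraries, the latter turning to 0.09 with RLE and 0.06 with quantile scaling. Ube2q2 was at 18.0, 16.9 and 18.0 FPKM in Mock cells, 9.0, 9.11 and 9.01 after M1 treatment, and 8.11, 9.36 and 9.03 with iodide. M1 and I overlapped, and all 6 polarized libraries were below Mock (log2 fold change −0.89 ± 0.048 SE, limma adjusted p = 1.01e-08). Ube2q1 had a log2 fold change of −0.27 in M1, which turned to 0.04 with RLE scaling. Ube2cbp was at 1.14, 1.03 and 1.22 FPKM in Mock cells, 0.112, 0.281 and 0.315 after M1 treatment, and 0.132, 0.243 and 0.0581 with iodide. It was low in all groups and lowest in polarized cells (log2 fold change −0.79 ± 0.082 SE, limma adjusted p = 3.25e-06). The membrane enzymes of the endoplasmic reticulum differed, Ube2j2 rising by 0.30 and Ube2j1 falling by 0.09 in M1, where the latter turned to 0.21 with RLE scaling, and Ube2j1 fell again by 0.10 with iodide, a call lost with RLE or quantile scaling.

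**Figure D4:**
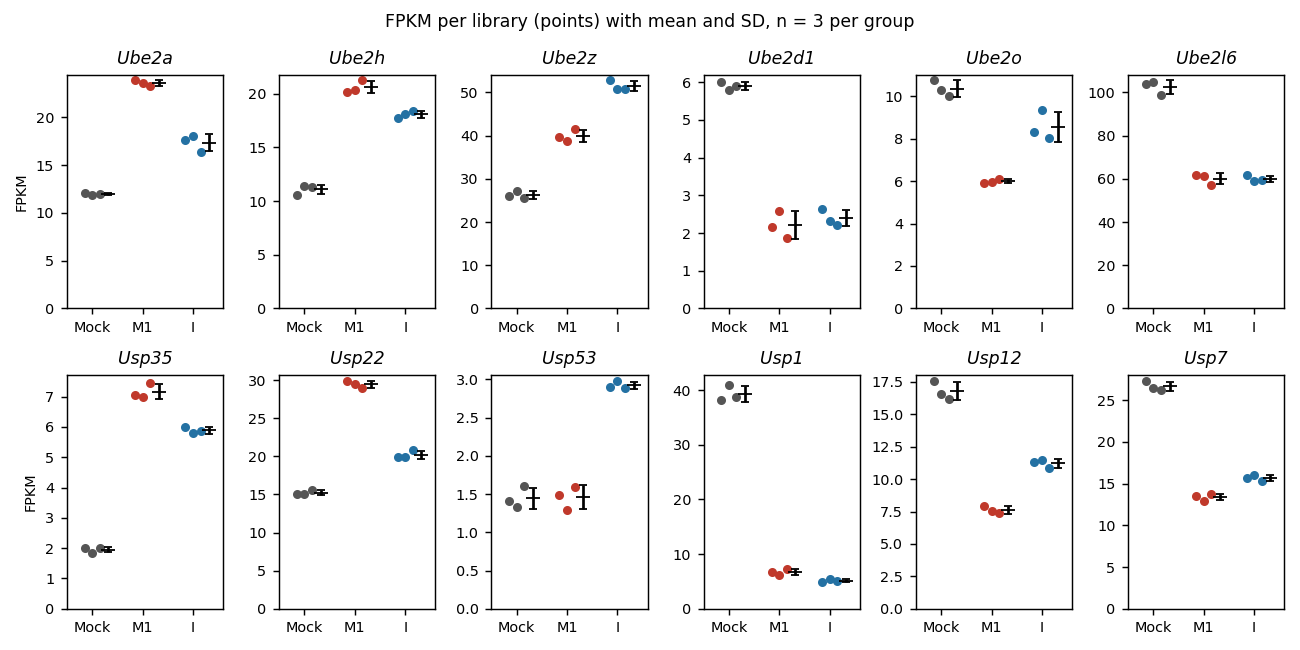
FPKM in each library (points) of 6 Ube2 genes (upper row) and 6 Usp genes (lower row) in Mock, M1 and I, with the mean and SD of n = 3 beside the points; each vertical axis starts at 0. Ube2z is higher in M1 than in Mock and higher again in I, Ube2l6 and Ube2d1 are lower in M1 and I than in Mock, Usp53 FPKM overlap in Mock and M1 and are higher in I, and Usp12 and Usp7 have I between M1 and Mock, as has Ube2o, which turns above Mock in I with RLE and quantile scaling.

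Deubiquitinases of chromatin and DNA repair held the largest fall of all members. Usp1 (ENSMUSG00000028560.11, chromosome 4, 98923810 to 98935543, plus strand) was at 38.1, 41.0 and 38.8 FPKM in Mock cells, 6.65, 6.199 and 7.27 after M1 treatment, and 4.88, 5.44 and 5.07 with iodide. All Mock libraries stood far above all polarized libraries (log2 fold change −2.39 ± 0.055 SE, limma adjusted p = 9.73e-12). Usp1 was lower again with iodide (log2 fold change −0.33 ± 0.055 SE, limma adjusted p = 0.000373). Usp22 (ENSMUSG00000042506.15, chromosome 11, 61151785 to 61175055, minus strand) was at 15.03, 15.04 and 15.6 FPKM in Mock cells, 29.9, 29.5 and 28.9 after M1 treatment, and 19.9, 19.9 and 20.9 with iodide. M1 was highest and Mock lowest (log2 fold change 0.91 ± 0.031 SE, limma adjusted p = 2.12e-10), and its fall with iodide was the largest of the Usp genes (log2 fold change −0.52 ± 0.031 SE, limma adjusted p = 1.73e-07). Usp36, a nucleolar enzyme, was at 8.72, 9.06 and 8.76 FPKM in Mock cells, 3.35, 3.06 and 3.42 after M1 treatment, and 2.55, 2.32 and 2.47 with iodide. It fell in both steps, without overlap (log2 fold change −1.20 ± 0.049 SE, limma adjusted p = 8.17e-10, and −0.31 ± 0.049 SE with iodide).

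Histone H2A deubiquitinases Usp3 and Usp16 went opposite ways in M1. Usp3 rose from 6.901 ± 0.16 to 10.97 ± 0.22 FPKM and Usp16 fell from 8.27 ± 0.38 to 4.13 ± 0.23, and neither was called with iodide. Usp48 fell from 10.8 ± 0.34 to 6.97 ± 0.39 FPKM. Usp28 was at 4.45 ± 0.14, 3.99 ± 0.2 and 4.38 ± 0.095 FPKM in Mock, M1 and I, and its small fall in M1 turned sign with both other scalings and was lost without any of 3 libraries (limma adjusted p = 0.0638 to 0.0827). Usp45, which acts on the repair protein ERCC1 (ENSMUSG00000040455.17, chromosome 4, 21767156 to 21837872, plus strand), was at 30.97, 31.97 and 30.4 FPKM in Mock cells, 9.46, 8.29 and 8.39 after M1 treatment, and 7.36, 7.598 and 7.71 with iodide. Mock stood far above both polarized groups (log2 fold change −1.73 ± 0.047 SE, limma adjusted p = 3.29e-11), and the I libraries were below M1 (log2 fold change −0.18 ± 0.047 SE, limma adjusted p = 0.00604).

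WDR48 activates Usp1, Usp12 and Usp46, which all fell in M1, where 73.8% of Usp genes and 55.3% of all genes fell. With iodide Usp1 fell, Usp12 rose and Usp46 was not called, beside 39.3% of all genes lower and 24.9% higher. Usp12 (ENSMUSG00000029640.17, chromosome 5, 146734809 to 146795006, minus strand) was at 17.5, 16.6 and 16.2 FPKM in Mock cells, 7.96, 7.52 and 7.35 after M1 treatment, and 11.3, 11.5 and 10.8 with iodide. No groups overlapped, with I between M1 and Mock (log2 fold change −1.05 ± 0.042 SE, limma adjusted p = 7.61e-10, and log2 fold change 0.50 ± 0.042 SE, limma adjusted p = 2.11e-06 with iodide). Usp46 fell from 2.56 ± 0.12 to 0.923 ± 0.098 FPKM, and the step to 0.791 ± 0.096 in I was not called. Wdr48 itself fell in M1 by 0.52 on the log2 scale, and iodide gave no call.

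Of 8 Usp genes with roles in inflammatory signalling, 7 fell and 1 rose in M1, beside 55.3% and 30.5% of all genes. Usp4, which acts on TRAF proteins and the TGF-beta receptor, was the rise, at 18.1, 17.97 and 17.9 FPKM in Mock cells, 29.5, 31.1 and 31.4 after M1 treatment, and 28.4, 28.96 and 28.8 with iodide. Polarized libraries all lay above Mock (log2 fold change 0.73 ± 0.029 SE, limma adjusted p = 7.82e-10). Its small fall with iodide (−0.09) was lost with RLE or quantile scaling and without M1 replicate 2, M1 replicate 3 or I replicate 1 (limma adjusted p = 0.062 to 0.0789). Usp15, a close relative of Usp4, was at 11.4, 10.99 and 10.9 FPKM in Mock cells, 6.91, 6.36 and 6.901 after M1 treatment, and 6.65, 6.94 and 6.54 with iodide. It fell in M1 (log2 fold change −0.65 ± 0.042 SE, limma adjusted p = 5.13e-08) and did not differ by a call between M1 and I, whose ranges overlapped. Usp7, which acts on the p53 regulator MDM2, was at 27.3, 26.4 and 26.2 FPKM in Mock cells, 13.5, 12.9 and 13.8 after M1 treatment, and 15.7, 16.02 and 15.3 with iodide. I lay between M1 and Mock without overlap (log2 fold change −0.94 ± 0.033 SE, limma adjusted p = 2.6e-10, and log2 fold change 0.21 ± 0.033 SE, limma adjusted p = 0.000221 with iodide). Usp25, an enzyme that acts on TRAF3, had the highest mean of the Usp genes in each group, at 58.1, 57.9 and 55.4 FPKM in Mock cells, 41.3, 39.8 and 39.6 after M1 treatment, and 47.9, 51.9 and 47.6 with iodide. M1 was lowest and Mock highest, without overlap, though I turned above Mock with RLE scaling (log2 fold change −0.50 ± 0.037 SE, limma adjusted p = 1.76e-07, and log2 fold change 0.28 ± 0.037 SE, limma adjusted p = 6.54e-05 with iodide).

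The other genes of this group fell in M1 and had no rise with iodide. Usp10, which binds the stress granule protein G3BP1, fell from 8.07 ± 0.12 to 2.63 ± 0.092 FPKM in M1 and to 2.14 ± 0.076 in I. Usp21 fell from 7.79 ± 0.71 to 5.54 ± 0.31 and 4.45 ± 0.29 FPKM. The fall of Usp21 in M1 was not called with quantile scaling, whereas that with iodide was called with each. Usp11 fell from 2.22 ± 0.19 to 0.645 ± 0.02 FPKM. Usp2 was at 1.33, 1.13 and 1.11 FPKM in Mock cells, 0.469, 0.408 and 0.362 after M1 treatment, and 0.323, 0.35 and 0.356 with iodide. It was low throughout, with Mock above all polarized libraries (log2 fold change −0.63 ± 0.058 SE, limma adjusted p = 1.16e-06) and no call for iodide.

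Deubiquitinases at the proteasome and of free chains were lower in M1 to different extents. Usp14, which trims chains on the proteasome, was at 23.1, 23.7 and 24.1 FPKM in Mock cells, 12.6, 11.2 and 11.8 after M1 treatment, and 9.38, 9.64 and 8.86 with iodide. It fell in M1 (log2 fold change −0.94 ± 0.046 SE, limma adjusted p = 3.99e-09) and again with iodide (log2 fold change −0.32 ± 0.046 SE, limma adjusted p = 0.000117), and 26% of its exon bases are shared with Thoc1 on the opposite strand. Usp5, which recycles free chains, was at 29.8, 29.1 and 29.9 FPKM in Mock cells, 26.6, 25.4 and 26.5 after M1 treatment, and 26.1, 26.02 and 26.2 with iodide. The difference between M1 and Mock was −0.17 and turned to 0.13 with RLE scaling, and M1 and I overlapped.

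Of 6 enzymes of membranes and traffic, 4 fell and 1 rose in M1, beside 55.3% and 30.5% of all genes, and 1 fell and 3 rose with iodide, beside 39.3% and 24.9%. Usp30, on the mitochondrial outer membrane, was at 3.86, 3.898 and 3.96 FPKM in Mock cells, 4.75, 4.34 and 4.68 after M1 treatment, and 3.85, 3.89 and 3.78 with iodide. M1 was above both other groups (log2 fold change 0.19 ± 0.044 SE, limma adjusted p = 0.00197, and log2 fold change −0.21 ± 0.044 SE, limma adjusted p = 0.00183 with iodide), and Mock and I overlapped. With RLE and quantile scaling I of Usp30 turned above Mock. Usp32 was at 9.09, 9.195 and 8.87 FPKM in Mock cells, 8.54, 7.82 and 8.06 after M1 treatment, and 10.1, 11.3 and 10.5 with iodide. Every I library exceeded every M1 library (log2 fold change 0.35 ± 0.046 SE, limma adjusted p = 7e-05), and the fall of −0.14 in M1 turned to 0.14 with RLE and 0.15 with quantile scaling and was lost without M1 replicate 2 (limma adjusted p = 0.0607). Usp19, anchored in the endoplasmic reticulum, fell from 26.9 ± 0.81 to 16.8 ± 0.69 FPKM, and Usp33 from 4.26 ± 0.12 to 3.104 ± 0.16, a sign that turned with quantile scaling. Usp20 was not called in M1, except above Mock with RLE and quantile scaling, and rose with iodide from 2.601 ± 0.18 to 3.16 ± 0.18 FPKM. Usp8, an endosomal enzyme, was at 43.3 ± 0.51, 39.1 ± 0.54 and 41.2 ± 0.64 FPKM in the 3 groups. The fall of Usp8 in M1 turned to 0.16 with RLE scaling, and its rise with iodide (0.08) was lost without any of 3 libraries (limma adjusted p = 0.0506 to 0.0658).

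Among the Usp genes outside these roles, Usp35 (ENSMUSG00000035713.15, chromosome 7, 97309380 to 97332020, minus strand) was at 1.997, 1.84 and 2.005 FPKM in Mock cells, 7.06, 6.99 and 7.44 after M1 treatment, and 6.01, 5.796 and 5.87 with iodide. Of the tested Usp genes it alone rose at least 2-fold in M1 on the log2(FPKM + 1) scale (log2 fold change 1.47 ± 0.044 SE, limma adjusted p = 7.25e-11). It fell with iodide (log2 fold change −0.24 ± 0.044 SE, limma adjusted p = 0.000631). Usp37, which acts on cell cycle proteins, was at 4.51, 4.29 and 4.42 FPKM in Mock cells, 7.57, 7.08 and 7.05 after M1 treatment, and 8.88, 9.702 and 9.39 with iodide. It rose in M1 and was higher again in I, without overlap (log2 fold change 0.61 ± 0.045 SE, limma adjusted p = 1.51e-07, and log2 fold change 0.33 ± 0.045 SE, limma adjusted p = 8.61e-05 with iodide). Usp47, an enzyme of base excision repair, rose by log2 fold changes of 0.24 and 0.23. Usp53 (ENSMUSG00000039701.11, chromosome 3, 122931493 to 122984510, minus strand) was at 1.41, 1.33 and 1.6 FPKM in Mock cells, 1.49, 1.29 and 1.598 after M1 treatment, and 2.904, 2.98 and 2.89 with iodide. Mock and M1 overlapped, and each I library was above all others (log2 fold change 0.67 ± 0.062 SE, limma adjusted p = 4.25e-06). With RLE and quantile scaling Usp53 was called higher in M1 as well, by 0.19 and 0.35.

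Among the other large falls in M1 were those of Usp34, Usp31, Usp9x and Usp24. Usp34, which acts in Wnt signalling, was at 11.2, 10.5 and 10.4 FPKM in Mock cells, 2.92, 2.71 and 3.15 after M1 treatment, and 3.33, 3.85 and 3.94 with iodide. Usp31 was at 7.56, 6.798 and 7.01 FPKM in Mock cells, 2.19, 2.08 and 2.005 after M1 treatment, and 2.65, 2.66 and 2.55 with iodide. In both the Mock libraries lay above all others and the I libraries above M1 (Usp34 log2 fold change −1.58 ± 0.061 SE, limma adjusted p = 6.15e-10). For Usp31 the fall was −1.39 ± 0.05 SE and the rise with iodide 0.23 ± 0.05 SE. Usp9x, on the X chromosome, fell from 26.8 ± 1.2 to 9.74 ± 0.53 FPKM, and Usp24 from 15.5 ± 0.61 to 7.01 ± 0.18. The further fall of Usp24 with iodide (−0.12) was lost with RLE or quantile scaling and without any of 4 libraries (limma adjusted p = 0.0714 to 0.117), and that of Usp9x was not called.

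Usp27x, Usp40, Usp42 and Usp54 fell in M1, with log2 fold changes of −0.82 to −0.39. Of these Usp42 rose with iodide, from 2.91 ± 0.15 to 3.79 ± 0.4 FPKM, and the others were not called. The fall of Usp54 was not called with quantile scaling. Usp38 rose with iodide by 0.20, and 20.5% of its exon bases are shared with Gm9725 on the opposite strand. In M1 it was not called with library-total scaling, but its sign turned and it was called above Mock with RLE and quantile scaling. Usp49 was at 0.654, 0.481 and 0.508 FPKM in Mock cells, 0.316, 0.405 and 0.446 after M1 treatment, and 0.577, 0.571 and 0.582 with iodide. It fell in M1, a sign that turned with quantile scaling, and rose with iodide. Leaving out single libraries ended either call of Usp49 in 3 of 9 cases (limma adjusted p = 0.0567 to 0.136 and 0.0524 to 0.0841), and 52.3% of its exon bases are shared with other genes. The splicing factor Usp39 rose with iodide from 33.4 ± 0.55 to 40.5 ± 2.4 FPKM, and was called above Mock in M1 with RLE scaling only. Usp6nl was at 4.18, 3.82 and 3.92 FPKM in Mock cells, 3.06, 2.79 and 2.93 after M1 treatment, and 3.93, 4.1 and 3.95 with iodide. I and Mock overlapped, and I was above M1 (log2 fold change 0.35 ± 0.048 SE, limma adjusted p = 9.38e-05), and its fall of −0.34 in M1 turned to 0.05 with quantile scaling.

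Other genes of the ubiquitin system were counted from lists by role with library-total scaling, and the genes named were picked after their values were seen. The counts are to be read against all genes tested, of which 30.5% rose and 55.3% fell in M1 (median −0.232) and 24.9% rose and 39.3% fell with iodide (median −0.065). All 4 ubiquitin genes rose in M1 and both ubiquitin E1 genes fell, and with iodide 4 of these 6 fell and none rose. Ubb rose from 315 ± 6 to 539.7 ± 7.8 FPKM, and the E1 gene Uba6 fell from 16.1 ± 0.16 to 10.9 ± 0.29. Of 17 ubiquitin-like proteins and their E1 enzymes 6 rose and 11 fell in M1, and 3 rose and 8 fell with iodide. Of 9 E2 genes and variants with other symbols 5 rose and 4 fell in M1. Cdc34, the relative of Ube2r2, rose from 35.4 ± 1.4 to 71.4 ± 4.8 FPKM and fell to 55.3 ± 2.5 with iodide. Birc6, a giant E2 and E3 hybrid like Ube2o, fell from 13.7 ± 0.55 to 4.74 ± 0.25 and was at 6.71 ± 0.42 in I (log2 fold change 0.43 ± 0.052 SE, limma adjusted p = 3.68e-05).

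Of 32 tested deubiquitinases of other families, 13 rose and 17 fell in M1 (median log2 fold change −0.11, with −0.232 over all genes), where 30.5% of all genes rose and 55.3% fell. With iodide 11 rose and 10 fell (median −0.01, with −0.065 over all genes), where 24.9% of all genes rose and 39.3% fell. Tnfaip3, the NF-kB feedback inhibitor A20, rose from 4.45 ± 0.24 to 14.1 ± 0.64 FPKM in M1 and to 16.7 ± 0.35 with iodide. Otulin, which cuts linear chains, rose from 25.5 ± 0.97 to 35.4 ± 0.28 and 50.5 ± 1.4 FPKM, and Vcpip1 fell from 24.7 ± 0.91 to 6.89 ± 0.5. Of 21 E3 ligases of innate signalling 11 rose and 9 fell in M1, and 6 rose and 2 fell with iodide. Among them Rnf19b rose from 51.8 ± 1.9 to 201 ± 7 FPKM, Xiap fell from 21.9 ± 1.1 to 9.99 ± 0.76, and Itch rose with iodide from 16.2 ± 0.33 to 24.04 ± 0.93. Of 8 cofactors of USP enzymes 3 rose and 5 fell in M1, among the falls the USP10 partner G3bp1 from 57.3 ± 0.46 to 20.3 ± 0.099 FPKM.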

How the data were processed

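RNA was measured in 9 libraries, 3 in each of the groups Mock, M1 and I. Per the submitters' processing notes, fastp 0.20.1, HISAT2 2.2.1 and featureCounts 2.0.1 (Subread) and the build GRCm38 were used; no source names the settings, use of strand or annotation. The authors deposited 1 table of FPKM values per library, where the unit was read from the values and not from a header. With GENCODE vM21 exon lengths 98.4 to 98.5% of values came out as whole fragments within 0.05, which gave the library totals; the steps could not be recovered for Usp25 and Usp27x. The lengths of 12216 of 12474 rows (97.9%) were matched by symbol, and of all 75 members.

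log2(FPKM + 1) values of all 9 libraries were fitted with limma 3.58.1 (R 4.3.3), 1 term per group, empirical Bayes with a trend, after a filter of at least 0.5 FPKM in at least 3 libraries that left 11156 rows and removed 1318. P-values were adjusted over all 11156. The code was tested on simulated data. No library was a copy of another by a chi-square of recovered fragments (mean 2.03 to 3.72 per gene within groups). Alternatives were RLE and quantile scaling, a pseudocount of 0.1, no filter, a mean FPKM of at least 1, fits of only the groups compared, limma-voom on recovered fragments, a replicate block, each library left out, and, added after seeing the data, members without the 6 symbols that name no enzyme of either kind.

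The members and lists were chosen with earlier results of these data known, and so were the promoter motifs. The genes described with all library values are, for each family, direction and comparison, the 4 largest called rises and 4 largest called falls by log2 fold change in M1 vs Mock and in I vs M1, plus 16 key members, 1 of which is counted but not reported singly here, and others are named by role. Reads shared by near-identical copies (Ube2d1, Ube2d2a, Ube2d3 and Ube2d-ps, or Usp22 and Usp27x) or by genes overlapping on either strand make those values uncertain.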

Additional observations from a re-analysis of the deposited data

How the results depend on the processing

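Among the alternatives, the scaling of the libraries altered the most results, though most stayed as they were. With RLE scaling 197 results of single genes in a comparison stayed the same by call. Another 25 turned sign, 16 gained a call and 17 lost one. With RLE scaling, M1 vs Mock gave 17 Ube2 genes higher and 9 lower and 15 Usp genes higher, and with quantile scaling 16, 11 and 12. For I vs M1, Ube2 genes higher were 6 with either. For I vs Mock, Ube2 genes lower were 11 with RLE and 12 with quantile scaling, and Usp genes higher 18 with RLE scaling. The cause was not tested beyond the shift of the median of all genes.

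The Ube2 median minus the Usp median for M1 vs Mock was 0.51 with a pseudocount of 0.1, 0.53 with limma-voom, 0.43 without the 6 symbols that name no E2 enzyme or deubiquitinase, and 0.33 to 0.43 with single libraries left out. For I vs Mock it was 0.21 with RLE scaling, 0.24 with the pseudocount of 0.1, 0.25 with limma-voom, 0.22 without those 6 symbols, and 0.11 to 0.15 with single libraries left out. For I vs M1 it was −0.17 to −0.10 with single libraries left out. The cause was not tested.

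With RLE scaling the log2 fold change of M1 vs Mock turned sign to Ube2d3 0.20, Ube2e1 0.10, Ube2e3 0.25, Ube2f 0.14, Ube2j1 0.21, Ube2q1 0.04, Usp28 0.13, Usp32 0.14, Usp38 0.16, Usp39 0.24, Usp5 0.13 and Usp8 0.16. With RLE scaling the log2 fold change of I vs Mock turned sign to Ube2d3 0.02, Ube2f 0.06, Ube2g2 0.35, Ube2j1 0.17, Ube2o 0.09, Ube2q1 0.12, Ube2w 0.01, Usp25 0.16, Usp28 0.29, Usp30 0.28, Usp5 0.19 and Usp8 0.30. With quantile scaling the log2 fold change of M1 vs Mock turned sign to Ube2d-ps 0.07, Ube2d2a 0.10, Ube2d3 0.08, Ube2e1 0.13, Ube2e3 0.27, Ube2f 0.16, Usp28 0.25, Usp32 0.15, Usp33 0.03, Usp38 0.20, Usp49 0.04 and Usp6nl 0.05. With quantile scaling the log2 fold change of I vs M1 turned sign to Ube2m 0.00. With quantile scaling the log2 fold change of I vs Mock turned sign to Ube2d-ps 0.05, Ube2d2a 0.00, Ube2f 0.07, Ube2g2 0.19, Ube2o 0.06, Ube2w 0.02, Usp28 0.41, Usp30 0.42, Usp42 0.11, Usp54 0.03 and Usp8 0.02. The cause was not tested for single genes.

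Samples that share a replicate number did not deviate together more than others (r of −0.115 to 0.047 over 9 pairs, against −0.085 to 0.119 over 18 other pairs). This cannot show whether same-numbered libraries were handled together, which the labels do not say. With the replicate block, M1 vs Mock gave 9 Ube2 genes higher and 18 lower and 7 Usp genes higher and 30 lower. I vs M1 gave 4 and 17, and 16 and 10, and I vs Mock 10 and 21, and 10 and 27. The block ended the calls for Usp49, M1 vs Mock (limma adjusted p = 0.0575) and for Usp24, I vs M1 (limma adjusted p = 0.0593).

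Single libraries left out ended, beside the calls named above, that of Usp8 in I vs Mock (limma adjusted p = 0.0745 and 0.0777) and of Itch in M1 vs Mock (0.0524 and 0.0719). Depth limits the 9 members with under 100 fragments in a library.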
